A study of Mus musculus with 24 samples.

Results

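The data described here are 6 of the 24 RNA-seq libraries of a study of Ocy454 cells, a mouse osteocytic line derived from bone: 3 libraries given vehicle and 3 given a single agent for 2 h. The study treated these cells for 2 h or 8 h with vehicle, with lysophosphatidic acid (LPA), with 1,25-dihydroxyvitamin D (1,25D) or with the 2 combined, with 3 libraries per group, to follow synthesis of the bone hormone FGF23 and the signalling that the agents start. The members were chosen by the code in the names of the deposited tables, which reads L for the 3 treated libraries and Veh for the 3 controls. The sample titles give the treated libraries the letter D and their library names read 1,25D, so the letters of the single treatments are exchanged between titles and table names. Groups were kept as titled, the treated libraries are called the libraries labelled 1,25D throughout, and each direction given for them carries that reservation. That name is only the one in the titles, since Cyp24a1, a target gene of 1,25D, went with the table names, as given below. The sources used here give no doses. Since no label says that replicates were separate cultures, the p-values speak only of the spread among libraries within groups, which may be technical. That spread was estimated from all 24 libraries, not from these 6 alone. A cell line kept in culture is 1 source of cells, and in bulk RNA fewer cells of a type and less RNA per cell cannot be told apart.

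LPA is a small signalling lipid that binds G protein-coupled receptors of the LPAR family. Through these receptors it opens calcium stores, activates the ERK kinase cascade and the small GTPase RhoA, and within the first hours turns on immediate early genes, which encode transcription factors and feedback inhibitors and need no new protein for their own transcription. Actin polymerised under RhoA releases the coactivators MRTF, which bind serum response factor (SRF), and also keeps the coactivator YAP in the nucleus. 1,25D is the active vitamin D hormone, which binds the nuclear receptor encoded by Vdr and turns on genes such as Cyp24a1, the enzyme that breaks the hormone down.

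Cyp24a1 was at the limit of detection in the libraries labelled 1,25D, as in vehicle. Estimated counts were 0, 0 and 1 in the 3 vehicle libraries and 0, 0 and 1 in the libraries labelled 1,25D, a ratio of summed counts of 1.06 with a 95% exact counting interval from 0.0136 to 83.5. A limit of 3 counts stood at 0.0853 to 0.0874 depth-scaled counts (CPM) in single vehicle libraries and at 0.0911 to 0.0931 CPM in those labelled 1,25D, and both the interval and the limit take in counting error alone. The libraries labelled LPA, whose table names carry the letter D, held 2, 5 and 3 counts at 2 h, and those given both agents held 1, 2 and 3. At 8 h the contrast between the labels was wider, with 102 counts summed over the libraries labelled LPA, 87 over those given both agents, and 1 count each over vehicle and over the libraries labelled 1,25D.

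Vdr, the receptor gene, stood at 236, 229 and 232 CPM in vehicle and 169, 184 and 186 CPM in the libraries labelled 1,25D, so the groups did not overlap and the treated libraries were the lower. The log2 fold change was −0.37 (SE 0.08, adjusted p = 0.00182). At 2 h Vdr averaged 239 ± 24.2 CPM (mean ± SD, n = 3) in the libraries labelled LPA, and at 8 h it averaged 254 ± 6.88 CPM there, 125 ± 11.8 CPM in vehicle and 72.3 ± 1.91 CPM in the libraries labelled 1,25D. The immediate early gene Egr2 averaged 17.6 ± 0.871 CPM in vehicle, 11.3 ± 0.469 CPM in the libraries labelled LPA, 141 ± 14.3 CPM in those labelled 1,25D and 65.2 ± 2.44 CPM with both agents at 2 h. Lif, a cytokine gene, followed the same order of groups with 4.49 ± 0.490, 4.11 ± 0.191, 26.4 ± 0.166 and 26.1 ± 3.64 CPM. Cyp24a1 therefore went with the letter in the table names and against the titles, and the immediate early genes were high in the libraries labelled 1,25D and in those given both agents. Read by these genes, the libraries labelled 1,25D look like those given LPA, and the libraries labelled LPA like those given 1,25D. The labels themselves do not settle which agent was given, so the changes below should not be taken as effects of 1,25D.

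**Figure D1:**
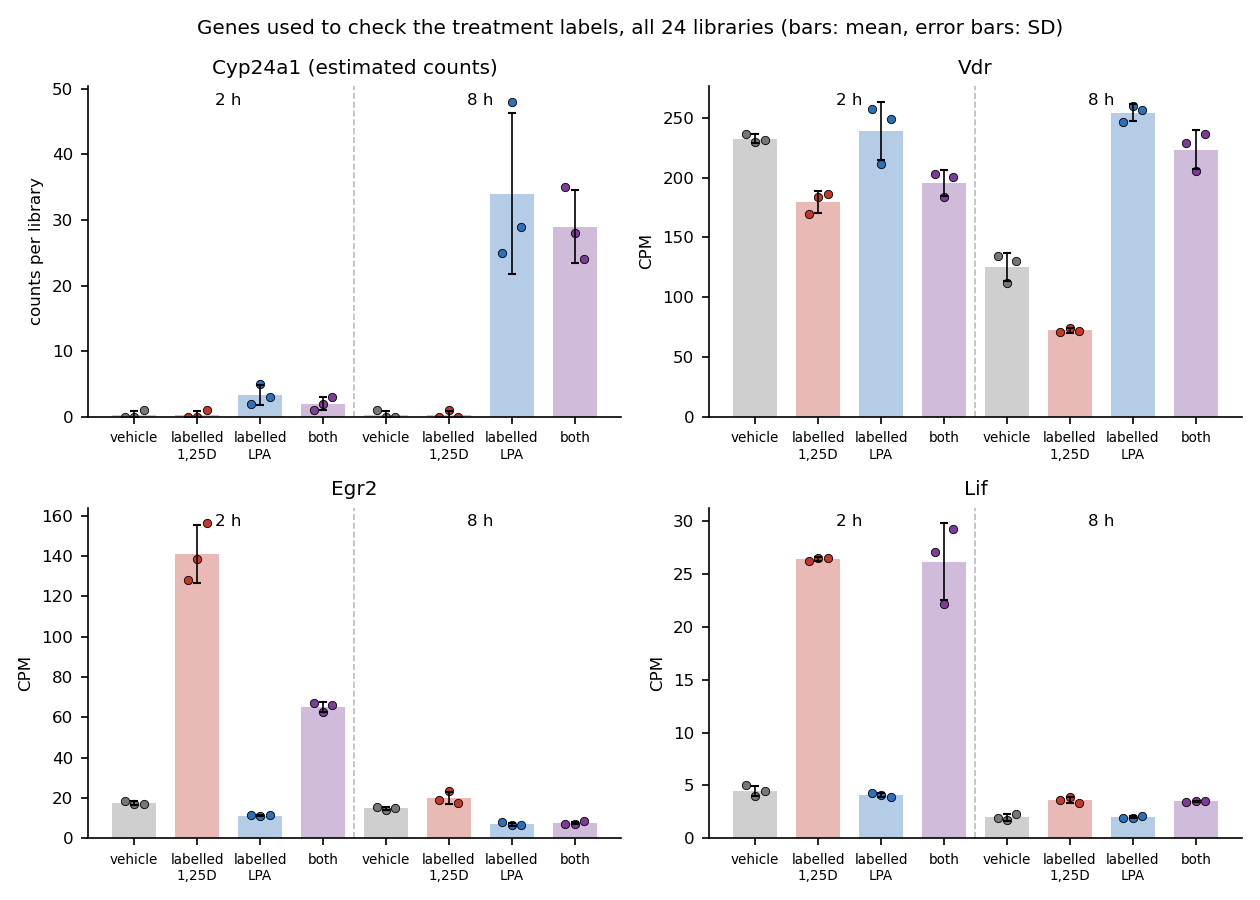
Cyp24a1 as estimated counts, and Vdr, Egr2 and Lif in CPM, in each of the 24 libraries grouped by title and time; points are libraries, bars are group means and error bars are SD (n = 3). Cyp24a1 counts appear in the libraries labelled LPA and in those given both agents, while Egr2 and Lif at 2 h are high in the libraries labelled 1,25D and those given both agents.

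The 6 libraries held 33.34 to 33.64 M gene counts each, within the range of the 24 libraries of the study (32.79 to 33.67 M). Mitochondrially encoded genes took 9.01% of the counts in vehicle replicate 1, 11.51 and 11.27% in vehicle replicates 2 and 3, and 11.16 to 11.71% in the libraries labelled 1,25D. Vehicle replicate 1 stood apart from replicates 2 and 3 (chi-square per degree of freedom 35.9 and 36.2, against 7.94 between those 2 and 14.8, 20.3 and 24 within the treated group). Defining osteocyte genes were low or absent: Mepe and Dkk1 were at 0 in the 6 libraries, and Sost and Fgf23 were too low to test. The summed level of 18 osteocyte markers was 1121 to 1193 CPM in vehicle and 1478 to 1545 CPM in the treated libraries. Of 8 macrophage and blood cell markers, whose sum was 31.2 to 34.0 CPM in vehicle and 40.5 to 41.8 CPM in the treated libraries, 5 could be tested and Cd14 alone passed, with 11.3, 10.5 and 11.6 CPM in vehicle and 19.4, 17.4 and 19.5 CPM in the libraries labelled 1,25D. Sums of 5 endothelial markers (1.96 to 2.59 against 2.39 to 2.52 CPM) and 5 muscle markers (1.54 to 2.42 against 1.68 to 2.21 CPM) overlapped, Myod1, Myog, Adipoq, Col9a1 and Matn1 were at 0, and adipocyte and chondrocyte markers summed to at most 0.46 CPM.

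Of 16413 genes tested, 2285 (13.9%) passed an adjusted p of 0.05 in edgeR's quasi-likelihood test between the libraries labelled 1,25D and vehicle at 2 h, 1160 of them higher (7.07%) and 1125 lower (6.85%). The rises were the larger: their median log2 fold change was 0.56, against −0.42 for the falls, and 250 genes (1.52% of those tested) rose at least 2-fold while 70 (0.426%) fell that far. The median over all genes was −0.004. Replicates of the 2 groups did not overlap in 14.8% of all genes on the higher side and in 15.4% on the lower side, and these shares are the background for each statement on overlap below. In the same way, 7.07% higher and 6.85% lower are the background for each count of list members below. Without replicate 2 of the libraries labelled 1,25D, 1487 genes passed, and without vehicle replicate 1, 1791 did.

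**Figure D2:**
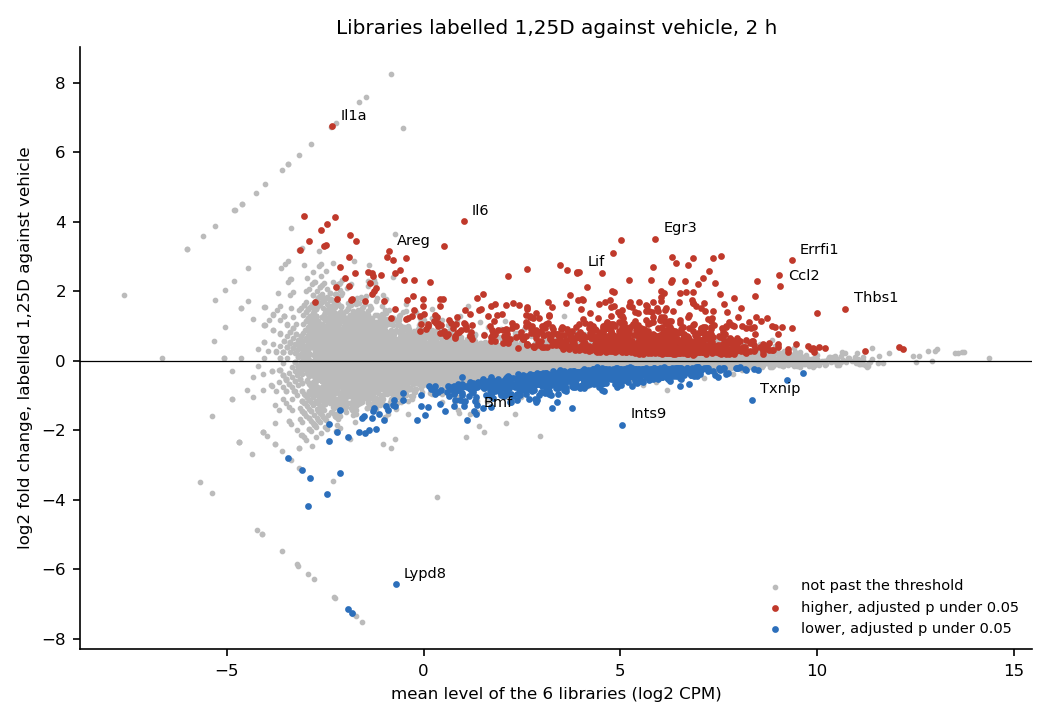
Log2 fold change of each tested gene at 2 h (vertical axis, labelled 1,25D against vehicle) by its mean level over the 6 libraries in log2 CPM (horizontal axis); red points passed an adjusted p of 0.05 as higher and blue ones as lower. Among well-expressed genes rises reach further from 0, as with Egr3 at 3.51, than falls, as with Ints9 at −1.84 and Txnip at −1.12. The widest values on both sides belong to low counts, and genes at 0 in all 6 libraries (4) are not drawn.

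The early growth response (EGR) zinc finger factors were among the genes that rose most. Of 5 tested members of a list of EGR factors and their NAB corepressors, 3 were higher and none lower, with a median log2 fold change of 2.29. Egr2 read 18.6, 17.2 and 17.1 CPM in vehicle and 128, 139 and 156 CPM in the libraries labelled 1,25D, 7.99-fold higher. Egr3 read 11.8, 9.04 and 7.52 CPM in vehicle and 115, 111 and 98.2 CPM in the libraries labelled 1,25D, a rise of 3.51 (SE 0.24, adjusted p = 7.57e-10) on the log2 scale. Egr1, the most studied member, read 149, 106 and 105 CPM in vehicle and 665, 580.5 and 520.1 CPM in the libraries labelled 1,25D. In none of the 3 genes did any treated library come near the vehicle range. On the length-scaled TPM of the deposited tables, Egr1 led in the treated libraries with a mean of 202 TPM, before Egr2 with 130.1 and Egr3 with 46.4, and in vehicle the order was the same, with 42.8, 17.7 and 4.40 TPM. The corepressor Nab2, itself an EGR target, changed by 0.43 (adjusted p = 0.227) and did not pass, nor did Nab1 at 0.20 (adjusted p = 0.0651).

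The promoter of Egr2 is shown because it carries, in capitals, a CArG box, the DNA element that SRF binds. The 200 bases before the annotated start at which the box lies 72 bases upstream are on the + strand of chr10:67537669-67537868 (RefSeq, build GRCm38.p6, which is not the build of the deposited tables). Of the 5 starts annotated for Egr2, 4 have such a box in the 200 bases before them. The box shown is counted more than once among these 4, as it lies 72, 73 and 133 bases upstream of neighbouring starts.
Egr2: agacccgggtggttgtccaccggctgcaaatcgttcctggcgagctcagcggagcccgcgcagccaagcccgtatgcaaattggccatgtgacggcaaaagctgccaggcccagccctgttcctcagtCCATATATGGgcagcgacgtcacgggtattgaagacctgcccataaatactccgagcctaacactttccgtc
A match is a description of the letters and shows no binding. The CArG box, searched by its usual degenerate consensus on both strands, was found in the 300 bases from 250 before to 50 after a start in 1.81% of 27025 genes with a promoter in that table.

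AP-1 factors, the FOS, JUN and ATF proteins that pair on growth-responsive DNA sites, were mostly among the genes that rose. Of 12 tested members of the AP-1 and small MAF list, 9 were higher and none lower, with a median of 1.87. Fos read 6.48, 6.05 and 7.78 CPM in vehicle and 42.9, 35.9 and 39 CPM in the libraries labelled 1,25D, a log2 fold change of 2.54 (SE 0.18, adjusted p = 8.97e-10). Fosb rose from 2.85 ± 0.819 to 19.3 ± 1.04 CPM and Fosl1, which encodes the more lasting partner FRA1, from 59.5 ± 3.52 to 282 ± 20.2 CPM. Atf3 was tight in both groups, with 11.4, 10.4 and 11.4 CPM in vehicle and 44.5, 44 and 44 CPM in the libraries labelled 1,25D. Fosl1 was the highest of these 4 per length in the treated libraries, at 200.2 TPM, while Fosb stood at 7.80 TPM. The other 5 members that passed rose by 0.91 to 2.46, and Mafg, Jund and Batf3, at 0.66, 0.51 and 0.22, did not pass.

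NR4A receptors and activity-regulated genes had the highest share of members called among the lists: 22 of 23 tested were higher and none lower, with a median of 1.40. Nr4a1, an orphan nuclear receptor induced by many calcium and kinase signals, read 46.6, 39.2 and 37.8 CPM in vehicle and 312, 344 and 351 CPM in the libraries labelled 1,25D. Arc, known for its role at synapses and a classical SRF target, rose 7.77-fold, from 26.1 ± 4.55 to 203 ± 3.84 CPM. Npas4, a calcium-induced transcription factor gene, rose from 0.260 ± 0.0599 to 2.62 ± 0.389 CPM, a log2 fold change of 3.31 (SE 0.44, adjusted p = 1.64e-05). Ier3 and Csrnp1, immediate early genes of stress and growth factor signals, rose by 2.22 and 2.54. Crem, at 0.31, was the member that did not pass.

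Other transcription factor families moved in part. Of 12 Krüppel-like factors tested, 6 rose and 1 fell, with a median of 0.71. Klf5, a factor of proliferating cells, rose from 27.1 ± 3.90 to 87.6 ± 8.04 CPM, and Klf4 from 19.2 ± 4.48 to 47.1 ± 4.34 CPM, while Klf11 fell from 15.5 ± 0.767 to 11.5 ± 1.31 CPM. Among 7 C/EBP factors and Tribbles pseudokinases, 3 rose and none fell, with a median of 0.18. Cebpd, a factor of acute inflammation, read 34.1, 25 and 22 CPM in vehicle and 172, 179.8 and 197 CPM in the libraries labelled 1,25D, a log2 fold change of 2.76 (SE 0.26, adjusted p = 9.89e-08). Cebpb rose by 1.96 and Trib1, a scaffold that directs C/EBP alpha to degradation, by 3.10. Of 12 ETS factors 4 rose, by 0.34 to 0.88, and none fell, and the ERK-regulated PEA3 factor Etv4 was at 0.28 (adjusted p = 0.541) at 2 h. The difference between families was not tested.

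Of 10 tested genes whose products shorten the life of mRNA, 7 were higher and none lower, with a median of 0.98. Zfp36, which encodes tristetraprolin, the protein that binds AU-rich elements of cytokine transcripts, read 43, 29.5 and 29.1 CPM in vehicle and 173, 154 and 170.4 CPM in the libraries labelled 1,25D, a log2 fold change of 2.29 (SE 0.17, adjusted p = 1.5e-09). Btg2, an adaptor of the deadenylase complex, rose by 2.33, and Zfp36l2, a relative of Zfp36, from 149.5 ± 27.1 to 539 ± 30.1 CPM. Zc3h12a, the endonuclease Regnase-1, rose from 25.7 ± 5.06 to 50.9 ± 3.76 CPM. Tob1 and Tob2, at −0.08 and 0.56, did not pass.

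**Figure D3:**
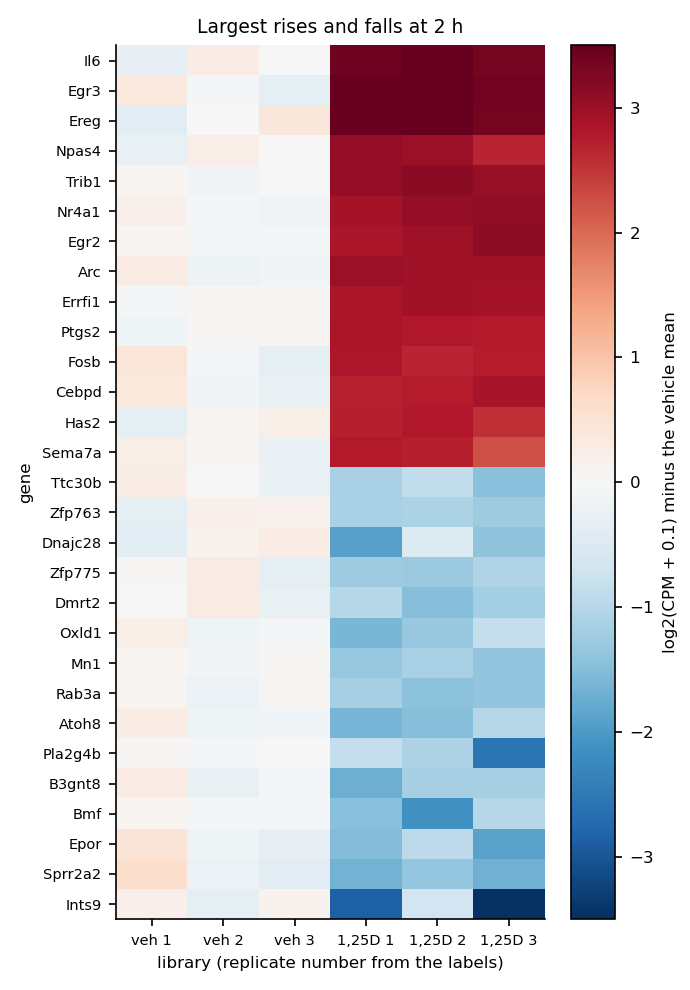
Heat map of 14 of the 15 largest rises and of the 15 largest falls at 2 h among named genes whose groups do not overlap and whose mean level reaches 1 CPM; colour is log2(CPM + 0.1) minus the vehicle mean in each of the 6 libraries. Each gene's treated libraries lie on 1 side of all 3 vehicle libraries.

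Of the 7 tested ligand genes of the EGF receptor 3 rose, and so did the gene of its inhibitor Mig6. Of 14 tested members of the EGF receptor list, 6 were higher and none lower, with a median of 0.25, so the list split between a few strong rises and members near 0. Ereg, which encodes epiregulin, read 4.01, 5.18 and 6.88 CPM in vehicle and 58, 67.4 and 54 CPM in the libraries labelled 1,25D, a log2 fold change of 3.48 (SE 0.18, adjusted p = 6.58e-12). Areg, amphiregulin, rose from 0.106 ± 0.0444 to 0.973 ± 0.223 CPM, a log2 fold change of 3.16 (SE 0.60, adjusted p = 0.000829) that rests on low counts. Hbegf, heparin-binding EGF-like growth factor, read 12.2, 11.2 and 11.4 CPM in vehicle and 38, 38.4 and 35.4 CPM in the libraries labelled 1,25D. Each of the 3 ligand genes was higher in 3 of 3 treated libraries. Tgfa, Btc, Epgn and Egf, the ligands that did not pass, changed by 0.25, 0.01, −0.06 and −0.30. Errfi1, also called Mig6, blocks the kinase of the EGF receptor and had the smallest adjusted p of the genes named here: it read 147, 159 and 160.2 CPM in vehicle and 1118, 1193 and 1167 CPM in the libraries labelled 1,25D, 7.47-fold higher. Per length the inhibitor outweighed the ligands, with 462 TPM in the treated libraries against 17.1 for Ereg, 19.2 for Hbegf and 1.06 for Areg.

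Feedback inhibitors of ERK signalling showed 9 of 15 tested members higher and none lower, with a median of 0.81. Dusp4, a nuclear phosphatase of ERK, read 4.52, 2.75 and 3.12 CPM in vehicle and 21.3, 21.8 and 21 CPM in the libraries labelled 1,25D, a log2 fold change of 2.62 (SE 0.18, adjusted p = 5.63e-10). Spry2, a Sprouty protein that acts upstream of RAS, read 3.92, 4.37 and 4.75 CPM in vehicle and 24.4, 26 and 26.8 CPM in the libraries labelled 1,25D, again with no overlap. Dusp6, the cytoplasmic ERK phosphatase, rose from 26.8 ± 1.96 to 129 ± 5.57 CPM and Dusp5, its nuclear relative, from 25.8 ± 4.30 to 104 ± 9.87 CPM. Spred1, which brings neurofibromin to RAS, rose by 1.06. Dusp7, Dusp14 and Spry1 lay near 0, at −0.11, 0.02 and 0.16.

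Of 19 tested cytokine, receptor and feedback inhibitor genes of the IL-6 and IL-12 family 10 were higher and none lower, with a median of 0.37. Il6 read 0.171, 0.290 and 0.233 CPM in vehicle and 3.34, 4.87 and 3.22 CPM in the libraries labelled 1,25D, a log2 fold change of 4.02 (SE 0.45, adjusted p = 1.37e-06). It had the largest rise among named genes without overlap whose mean over the 6 libraries was at least 1 CPM. Il6 reached that mean through the treated libraries alone. It remained a low transcript, with a mean of 4.79 TPM in the treated libraries. Lif, leukaemia inhibitory factor, read 5.0, 4.03 and 4.43 CPM in vehicle and 26.2, 26.5 and 26.5 CPM in the libraries labelled 1,25D, a log2 fold change of 2.56 (SE 0.12, adjusted p = 6.85e-13). Socs3, which blocks the shared receptor chain of both cytokines, rose from 26.5 ± 8.46 to 133 ± 7.40 CPM, and Clcf1, another ligand of the family, from 33.9 ± 4.41 to 80.7 ± 3.72 CPM. Il12a, the p35 subunit gene of interleukin 12, averaged 0.212 ± 0.0465 CPM in vehicle and 0.348 ± 0.0801 CPM in the treated libraries, a change of 0.71 (adjusted p = 0.327) that did not pass. The receptor genes Il6ra and Lifr, at 0.18 and −0.07, did not pass.

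Chemokine and other cytokine genes were higher in 15 of 18 tested members and lower in none, with a median of 1.05. Cxcl1, a neutrophil chemokine, read 100.1, 106 and 108 CPM in vehicle and 366, 372 and 369.7 CPM in the libraries labelled 1,25D, a log2 fold change of 1.82 (SE 0.11, adjusted p = 4.31e-11). Ccl2, the monocyte chemokine MCP-1, read 207, 194 and 185 CPM in vehicle and 729, 873 and 1010.0 CPM in the libraries labelled 1,25D, and its neighbour gene Ccl7 37.8, 43.3 and 43 CPM against 146, 172 and 170.3 CPM. Both monocyte chemokines were separated from vehicle by more than the spread within either group. In TPM Ccl2 averaged 1542 in the treated libraries, above Cxcl1 with 523 and Ccl7 with 297. Il1rl1, the receptor of interleukin 33, rose from 114 ± 5.18 to 304 ± 20.1 CPM. Il1a, chosen after its values were seen, had no count in the 3 vehicle libraries and 11, 7 and 21 counts in the treated ones, at least 4.61-fold higher against a limit of 3 counts in each vehicle library. The macrophage marker Cd14 rose by 0.75 beside these genes. Csf1r, Cd68 and Lyz2, at 0.875, 0.10 and −0.19, did not pass, and Ptprc and Adgre1 were too low to test. The 5 tested macrophage and blood cell markers had a median of 0.43. The part of such cells in the chemokine levels was not tested.

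Of 20 NF-kB subunits, inhibitors and targets 13 were higher and none lower, with a median of 0.64. Nfkbiz, a nuclear IkB protein needed for Il6 transcription in several cell types, rose from 37.2 ± 1.97 to 107 ± 2.52 CPM, and Bcl3, another nuclear IkB, from 10.5 ± 2.81 to 27.1 ± 4.91 CPM. Tnfaip3, which encodes the inhibitor A20, rose by 1.02 and Nfkb1, the p50 subunit gene, by 0.96. Traf1, a signalling adaptor, rose from 4.08 ± 0.611 to 10.5 ± 0.969 CPM.

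The promoters of Il6 and Cxcl1 are shown because each carries an NF-kB site (its letters in capitals) close to the start. The first lies on the + strand at chr5:30012914-30013113 and the second on the + strand at chr5:90891045-90891244, each being the 200 bases before the start (RefSeq, GRCm38.p6).
Il6: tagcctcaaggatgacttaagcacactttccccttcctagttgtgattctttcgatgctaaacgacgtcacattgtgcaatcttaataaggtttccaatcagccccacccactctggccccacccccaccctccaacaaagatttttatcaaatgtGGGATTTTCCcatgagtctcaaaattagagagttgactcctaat
Cxcl1: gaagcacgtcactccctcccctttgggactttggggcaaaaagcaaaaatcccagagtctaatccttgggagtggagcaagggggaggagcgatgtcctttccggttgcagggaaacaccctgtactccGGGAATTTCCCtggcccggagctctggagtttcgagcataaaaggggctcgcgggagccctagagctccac
The Il6 site begins 44 bases upstream of the start, and the capitals of Cxcl1 hold 2 overlapping matches that begin 71 and 70 bases upstream. The NF-kB site was searched by its usual degenerate consensus on both strands. Of the 20 tested list members 16 had a promoter in the table and 9 of these held a match. With a promoter, 9.55% of all genes, 12.03% of tested genes and 14.11% of the genes that rose held one. The list was made of known NF-kB genes, so its share is not a result of the treatment. The 9 with a match were Bcl3, Nfkbia, Nfkbid, Nfkbie, Rel and Tnfaip3, which had risen, and Nfkb2, Tnfaip2 and Tnip1, which did not pass.

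Prostaglandin genes were called in 4 of 13 tested members, all higher, with a median of 0.17. Ptgs2, the inducible cyclooxygenase, read 19.2, 22 and 22.7 CPM in vehicle and 154, 148 and 145 CPM in the libraries labelled 1,25D, a log2 fold change of 2.81 (SE 0.10, adjusted p = 1.29e-14), and its treated libraries lay within a few CPM of each other. Ptger4, a prostaglandin E2 receptor of bone cells, rose from 5.56 ± 0.475 to 11.4 ± 0.987 CPM. Ptgs1 and Ptges3 rose by only 0.27 and 0.19, and each lost its call under at least 1 alternative. Secreted growth factors rose in 9 of 15 tested members and fell in none, with a median of 0.77. Vegfa, the angiogenic factor, rose from 31.6 ± 4.42 to 90.7 ± 2.75 CPM, Gdnf, a neurotrophic factor, from 21 ± 2.93 to 68.2 ± 6.48 CPM, and Fgf7, keratinocyte growth factor, from 89.2 ± 11.3 to 241 ± 1.26 CPM. Bdnf, known as a calcium-regulated neurotrophin gene, rose by 1.47.

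Genes of the actin cytoskeleton that SRF and MRTF regulate were higher in 18 of 33 tested members and lower in none, with a median of 0.35. Srf itself read 170.0, 119.7 and 120.2 CPM in vehicle and 306, 304 and 275 CPM in the libraries labelled 1,25D, a log2 fold change of 1.11 (SE 0.24, adjusted p = 0.00264), and vehicle replicate 1 was the highest of its group. Vcl, which encodes the focal adhesion protein vinculin, read 359, 377 and 383 CPM in vehicle and 721, 773 and 679.5 CPM in the libraries labelled 1,25D. Pdlim5, a LIM protein of actin bundles, rose from 206 ± 18.9 to 497 ± 52.7 CPM, and Lima1, which stabilises actin filaments, from 449.5 ± 27.4 to 860.3 ± 38.3 CPM. Fhl2 and Tagln2, an SRF cofactor and an actin-binding protein, rose by 0.85 and 0.57. The coactivator genes Mrtfa and Mrtfb, at 0.27 and 0.04, did not pass. The promoter of Srf, on the − strand of chr17:46556163-46556362 (200 bases before the start, printed 5′ to 3′ on that strand), is shown for its 2 CArG boxes, in capitals, which begin 82 and 62 bases upstream.
Srf: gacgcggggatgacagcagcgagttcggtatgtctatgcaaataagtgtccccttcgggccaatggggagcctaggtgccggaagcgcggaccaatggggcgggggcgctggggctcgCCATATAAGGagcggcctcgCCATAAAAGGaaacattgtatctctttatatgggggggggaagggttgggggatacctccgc
Of the 33 tested members 30 had a promoter in the table, and 9 of these held a CArG box in the 300-base window. The 9 were Actg1, Cnn2, Fhl1, Fhl2, Filip1l, Lima1, Myl9, Srf and Vcl, of which Cnn2, Filip1l and Myl9, at 0.03, 0.23 and 0.16, did not pass in expression.

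YAP and TEAD targets were higher in 11 of 23 tested members and lower in none, with a median of 0.37. Ccn2 and Ccn1, secreted matrix-associated signalling proteins, read 29.5, 29.9 and 26.1 CPM against 101, 98.7 and 105 CPM and 646, 536 and 532 CPM against 1459, 1375 and 1615 CPM in vehicle and treated libraries. F3, tissue factor, rose from 52.1 ± 4.44 to 174 ± 10.2 CPM and Tgfb2 from 61.5 ± 1.69 to 153 ± 12.1 CPM. The pathway's own factors Yap1 and the TEAD genes did not pass, with changes from −0.03 to 0.72, and Wwtr1, the gene of the YAP relative TAZ, rose by 0.27. Regulators of G protein signalling were among the genes that changed. Rgs3, a GTPase activator for G protein alpha subunits, rose from 37.3 ± 2.20 to 103 ± 9.05 CPM, Rnd1, which encodes a small GTPase, from 33.6 ± 2.28 to 69.9 ± 8.95 CPM, and Arrb2, beta-arrestin 2, fell from 73.1 ± 3.73 to 59 ± 3.79 CPM.

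**Figure D4:**
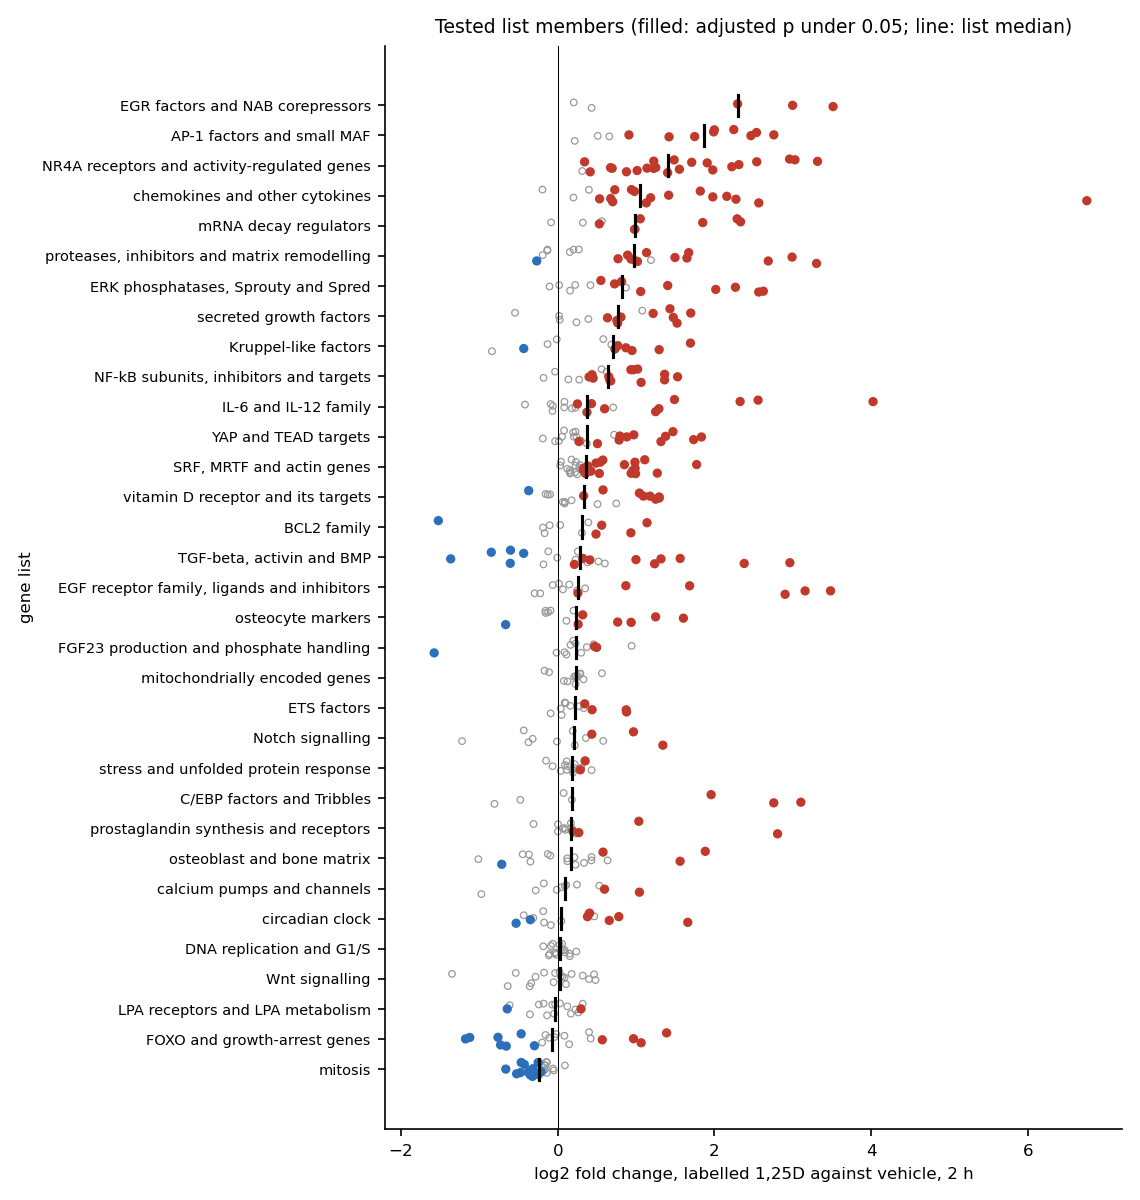
Log2 fold change at 2 h (horizontal axis, labelled 1,25D against vehicle) of the tested members of 33 gene lists; points are genes, filled where they passed an adjusted p of 0.05, and the vertical mark in each list is its median. The EGR, AP-1 and NR4A lists have the highest medians, at 2.29, 1.87 and 1.40, and the mitosis list the lowest, at −0.24.

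Of 16 tested members of the LPA receptor and metabolism list 1 was higher and 1 lower, 6.25% each way and close to the 7.07% and 6.85% of all genes tested, with a median of −0.04. Lpar2, which couples to several G proteins, read 31.7, 26.5 and 25.5 CPM in vehicle and 17.2, 17.8 and 18.6 CPM in the libraries labelled 1,25D, a log2 fold change of −0.64 (SE 0.14, adjusted p = 0.00281). Lpar1 read 66.5, 64.5 and 71.5 CPM in vehicle and 83.2, 81.6 and 83.8 CPM in the libraries labelled 1,25D, a change of 0.30 (SE 0.09, adjusted p = 0.0239) that lost its call in 5 of the 6 fits that left out 1 library and without a filter on low counts. Lpar1 was the highest receptor gene per length, at 41.2 TPM in vehicle, against 5.85 for Lpar2. Enpp2, the gene of the LPA-producing enzyme autotaxin, changed by 0.12 (adjusted p = 0.474) and did not pass.

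Of 19 tested vitamin D receptor targets and partners 8 were higher and 1, Vdr, lower, with a median of 0.33. These are 42.1% and 5.26%, against 7.07% and 6.85% of all genes tested. Cyp24a1 was not among the 8, at 0.06 (adjusted p = 0.988) on the few counts given above. Which agent moved the others was not tested, and these counts do not tell 1,25D from LPA. Klf4, Cdkn1a and Thbd, the genes of a Krüppel-like factor, the cell cycle inhibitor p21 and thrombomodulin, rose by 1.29, 1.18 and 1.09. Mmp13, collagenase 3, rose from 1.79 ± 0.317 to 4.41 ± 0.670 CPM, and Atp2b1, a plasma membrane calcium pump gene, from 109 ± 4.15 to 224 ± 28.4 CPM. Trpv6, a calcium channel gene, held 2, 5 and 3 counts in vehicle and 5, 10 and 1 counts in the treated libraries, which overlap.

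Of 14 tested osteocyte markers 6 rose and 1 fell, 42.9% and 7.14% against 7.07% and 6.85% of all genes tested, with a median of 0.23. Tnfrsf11b, which encodes osteoprotegerin, the decoy receptor that limits osteoclast formation, read 2.08, 2.35 and 1.89 CPM in vehicle and 5.62, 8.07 and 5.52 CPM in the libraries labelled 1,25D, a log2 fold change of 1.60 (SE 0.28, adjusted p = 0.000365). Tnfsf11, which encodes its ligand RANKL, read 0.625, 0.753 and 1.84 CPM in vehicle and 2.40, 2.98 and 2.27 CPM in the libraries labelled 1,25D, a change of 1.25 (SE 0.28, adjusted p = 0.00364) that lost its call when only these 2 groups were fitted. Vehicle replicate 3 was the closest of its group to the treated libraries for Tnfsf11. Spp1, osteopontin, read 202, 206 and 228 CPM in vehicle and 295, 336 and 319 CPM in the libraries labelled 1,25D, and Gja1, the gap junction protein connexin 43, rose from 149 ± 12.4 to 253 ± 20.6 CPM. Tnfrsf19 fell from 9.61 ± 1.12 to 6.06 ± 1.20 CPM. Of 18 osteoblast and matrix genes 3 rose and 1 fell: Sox9 and Twist1, transcription factors of skeletal precursors, rose by 1.88 and 1.56, Spp1 is the third, and Dlx5 fell by 0.71 on the log2 scale but lost its call in every fit that left out 1 library. Col1a1 and Sparc, at 0.12 and −0.10, did not pass.

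Fgf23, the hormone that the study was about, held 0, 0 and 1 counts in vehicle and 0, 0 and 0 in the treated libraries, too few for a call in either direction at this depth. Of 13 tested genes of FGF23 production and phosphate handling 2 rose and 1 fell, with a median of 0.23. These are 15.4% and 7.69%, against 7.07% and 6.85% of all genes tested, so the share that fell was near that of all genes. Hif1a, the oxygen-regulated factor, rose from 180.3 ± 9.27 to 254 ± 23.9 CPM, and Slc20a1, a phosphate transporter, from 53.8 ± 4.01 to 74.5 ± 3.61 CPM. Epor, the erythropoietin receptor, fell from 1.53 ± 0.473 to 0.512 ± 0.209 CPM. Dmp1, Phex, Fam20c and Furin, at 0.11, 0.94, 0.23 and 0.37, did not pass.

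TGF-beta and BMP genes moved in both directions. Of 22 tested members 9 rose and 5 fell, with a median of 0.29. Inhba, the activin A subunit, read 36.3, 47 and 49.5 CPM in vehicle and 244, 253 and 194 CPM in the libraries labelled 1,25D, and Fst, which binds and neutralises activin, rose from 18.7 ± 1.26 to 55.3 ± 4.49 CPM. Smad7, the inhibitory SMAD, rose by 1.24. The 5 that fell include the BMP targets Id2, with 56.6, 58.5 and 59 CPM in vehicle and 35.9, 37.8 and 40.9 CPM in the libraries labelled 1,25D, Id3, with a change of −0.43, and Atoh8, with 23.3, 17.3 and 18 CPM in vehicle and 6.26, 6.86 and 9.63 CPM in the libraries labelled 1,25D. Id1 and Smad6, chosen after their values were seen, are the other 2, at −0.61 and −0.85. Bmp4, at −0.12, did not pass.

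Proteases, their inhibitors and matrix genes were higher in 12 of 20 tested members and lower in 1, with a median of 0.97. Has2, a hyaluronan synthase, read 12.1, 16.1 and 17.5 CPM in vehicle and 99.7, 105 and 89.8 CPM in the libraries labelled 1,25D, a log2 fold change of 2.69 (SE 0.16, adjusted p = 5.11e-11). Thbs1, thrombospondin 1, read 870.1, 911 and 869 CPM in vehicle and 2632, 2478 and 2366 CPM in the libraries labelled 1,25D and reached 497 TPM. Adamts1 and Plaur, an aggrecan-cleaving protease and the urokinase receptor, rose from 56.2 ± 2.89 to 176 ± 11.1 CPM and from 67 ± 1.42 to 213 ± 29.5 CPM. Timp1, a tissue inhibitor of metalloproteinases, rose from 159.7 ± 9.78 to 319 ± 31.7 CPM. Has1, chosen after its values were seen, held 1, 1 and 1 counts in vehicle and 10, 17 and 4 in the treated libraries, a ratio of 11 with a 95% exact counting interval from 3.43 to 56.2. Mmp11 fell by 0.27 on the log2 scale.

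Falls were smaller in size and included genes of growth arrest and of mitosis. Of 20 FOXO and growth-arrest genes 7 fell and 4 rose, with a median of −0.08. Txnip, an arrestin that limits glucose uptake and binds thioredoxin, read 453, 448 and 444 CPM in vehicle and 211, 190.0 and 216 CPM in the libraries labelled 1,25D, a log2 fold change of −1.12 (SE 0.07, adjusted p = 5.11e-11). Pik3ip1, an inhibitor of PI3 kinase, read 8.75, 10.9 and 10.3 CPM in vehicle and 4.92, 3.82 and 4.54 CPM in the libraries labelled 1,25D, and Sesn1, a stress-induced inhibitor of mTORC1, fell from 38.2 ± 1.74 to 22.5 ± 0.762 CPM. The members that rose include Arrdc3 and Pdk4, by 1.39 and 1.06, so the list did not move 1 way. Of 11 BCL2 family genes 4 rose and 1 fell. Bmf, a pro-apoptotic BH3-only gene, read 3.92, 3.59 and 3.61 CPM in vehicle and 1.27, 0.776 and 1.81 CPM in the libraries labelled 1,25D, 2.88-fold lower in the treated libraries, while Mcl1 and Pmaip1, a survival protein and its antagonist NOXA, rose by 1.14 and 0.93.

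Mitosis genes were lower in 13 of 25 tested members and higher in none, with a median of −0.24, against 6.85% lower among all genes. Plk1, a kinase of mitotic entry, read 136, 127 and 135 CPM in vehicle and 77.4, 88.8 and 85.1 CPM in the libraries labelled 1,25D, a log2 fold change of −0.66 (SE 0.07, adjusted p = 3.96e-07). Kif2c, a kinesin that takes apart microtubule ends, fell from 110.2 ± 5.66 to 76.6 ± 2.68 CPM. Aurka, a spindle pole kinase, and Cdc20, the activator of the anaphase-promoting complex, had changes of −0.43 and −0.47. Fitted with only these 2 groups, 8 mitosis genes were lower. None of 17 DNA replication and G1/S genes passed, with a median of 0.02, so the cell cycle lists differed in their counts, and that difference was not tested. None of 19 Wnt genes and none of 13 mitochondrially encoded genes passed either, with medians of 0.02 and 0.23.

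The largest falls by fold among genes with at least 1 CPM included several low transcripts. Ints9, a subunit of the Integrator complex, read 58.2, 41.1 and 55.8 CPM in vehicle and 6.92, 31.9 and 4.54 CPM in the libraries labelled 1,25D, so that replicate 2 of the treated group lay far above the other 2, and its call, −1.84 (SE 0.47, adjusted p = 0.0111), was lost without replicate 1 of that group and when the 2 groups were fitted alone. Rab3a, a GTPase of regulated secretion, fell from 13.7 ± 1.60 to 5.37 ± 0.542 CPM with an adjusted p of 1.77e-07. Mn1, a transcriptional coregulator of bone development, read 4.86, 4.34 and 4.75 CPM against 1.79, 2.08 and 1.72 CPM in vehicle and treated libraries, with an adjusted p of 0.00262. Slc40a1, the iron exporter ferroportin, fell from 2.63 ± 0.240 to 1.19 ± 0.101 CPM, and Zfp763, a zinc finger gene, from 6.33 ± 1.16 to 2.75 ± 0.153 CPM. Circadian clock genes gave 5 rises and 2 falls of 15 tested, among them Bhlhe40, by 1.66, and Tef, which fell from 87 ± 9.02 to 60.2 ± 4.62 CPM. Of 12 Notch genes 3 rose, including the target Hes1, by 0.97, and of 15 stress response genes 2 rose, Atf4 and Dnajb1, by 0.35 and 0.29.

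A comparison that shares no library with the above asked what the agent labelled 1,25D did when added to the agent labelled LPA: both agents against labelled LPA at 2 h. There 3071 genes (18.7%) passed, 1515 higher (9.23%) and 1556 lower (9.48%). Of the 1160 genes that rose against vehicle, 938 also rose here, which is 80.9% of those and 61.9% of the 1515. Of the 1125 that fell, 809 also fell, 71.9% of those and 52.0% of the 1556. No gene that rose against vehicle fell here, and 6 that fell rose. The genes that rose at least 2-fold were shared in 212 of 250 cases (84.8%), with a median of 1.55 against vehicle and 1.43 when added to the other agent, and those that fell at least 2-fold in 25 of 70 (35.7%), with medians of −1.35 and −0.63.

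Most of the list members named here moved the same way in this comparison. Egr2 changed by 2.53 (adjusted p = 2.65e-13), Nr4a1 by 2.75 (adjusted p = 7.99e-11), Il6 by 3.58 (adjusted p = 1.07e-05), Cxcl1 by 1.90 (adjusted p = 2.7e-11) and Errfi1 by 2.43 (adjusted p = 1.4e-14) when the agent was added. Txnip changed by −1.28 (adjusted p = 6.71e-12) and Plk1 by −0.66 (adjusted p = 4.59e-07). All 3 EGR genes, all 9 AP-1 members, 14 of 15 chemokine and cytokine genes, 17 of 18 SRF genes and 12 of 13 mitosis genes called against vehicle were called the same way here. Ints9 did not repeat its fall, at −0.21 (adjusted p = 0.802), nor did Tnfsf11 its rise, at 0.57 (adjusted p = 0.145). The difference between both effects, tested in the same fit, passed in 6 of 16413 genes (0.0366%), 4 with the higher value in the presence of the other agent (0.0244%) and 2 with the lower (0.0122%), with 714 genes at an unadjusted p under 0.05, and DESeq2 called 8. Of the 6, Tsc22d1, a leucine zipper factor gene known as a TGF-beta target, and Fst rose by less with the other agent present, by 0.61 instead of 1.25 and by 0.95 instead of 1.56.

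**Figure D5:**
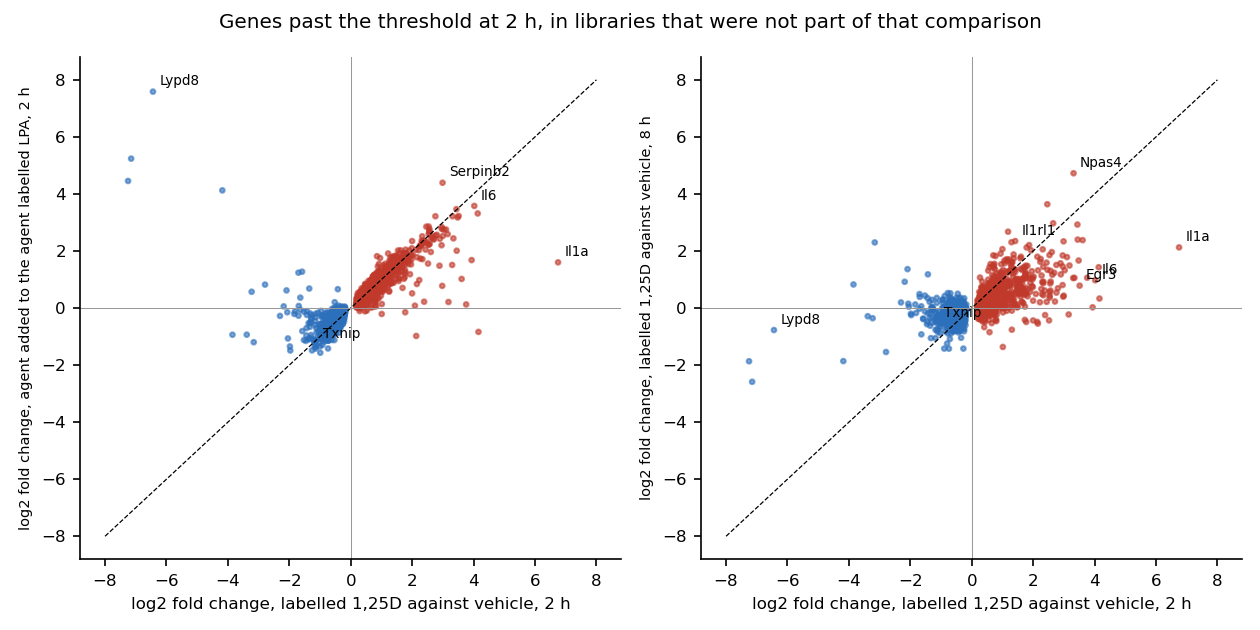
Log2 fold change of genes called at 2 h against vehicle (horizontal axis) plotted against their change when the agent was added to the agent labelled LPA at 2 h and against their change at 8 h; each point is a gene and the line marks equal change. At 2 h 80.9% of the risers were called the same way, and at 8 h 42.8%, with the 8 h values closer to 0.

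At 8 h, in 6 other libraries, 2666 genes (16.2%) passed between the libraries labelled 1,25D and vehicle, 1297 higher (7.9%) and 1369 lower (8.34%). Of the 1160 genes higher at 2 h, 497 were higher at 8 h, which is 42.8% of those and 38.3% of the 1297, and 17 were lower. Of the 1125 genes lower at 2 h, 302 were lower at 8 h, 26.8% of those and 22.1% of the 1369, and 6 were higher. The genes that rose at least 2-fold at 2 h had a median change of 0.77 at 8 h, and 152 of the 250 were still called higher. The test of the difference between times passed in 684 genes (4.17%), 218 with the larger value at 8 h (1.33%) and 466 with the larger value at 2 h (2.84%). Without a filter on low counts that balance turned, to 616 against 425, and the 8 h comparison itself held 2126 higher and 1058 lower. Among the 250 genes, the rise was smaller at 8 h in 90 and larger in 4 by this test, and among the 70 genes that fell at least 2-fold, the fall was smaller in 21 and larger in none. Both sets were chosen by their change at 2 h. The difference uses the same 2 h libraries, so these counts lean towards smaller effects at 8 h. At 8 h 1517 genes passed without vehicle replicate 2, and 1756, 1749 and 1650 without replicates 1, 2 and 3 of the libraries labelled 1,25D, while without replicate 1 of either the 2 h vehicle group or the 8 h group labelled 1,25D, 448 or 442 genes differed between times.

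Immediate early genes were among those whose rise was smaller at 8 h. Egr2 changed by 0.43 at 8 h, with a difference between times of −2.56 (SE 0.14, adjusted p = 6.83e-10), and Egr3 by 0.79, with a difference of −2.73 (SE 0.33, adjusted p = 2.39e-05). Ptgs2, Dusp6 and Lif changed by 0.69, 0.67 and 0.86 at 8 h, and each difference between times passed, with adjusted p-values of 3.29e-09, 6.14e-09 and 1.81e-06. Bmf, low at 2 h, was at −0.12 (adjusted p = 0.678) at 8 h, a difference of 1.41 (SE 0.25, adjusted p = 0.00157). Other genes rose further. Spp1 changed by 1.43 at 8 h against 0.58 at 2 h, Timp1 by 2.07 against 1.00, Il1rl1 by 2.35 against 1.42 and Hmga1, a chromatin architectural protein gene, by 2.68 against 1.18, with adjusted p-values for the difference of 0.000409, 3.95e-05, 0.000755 and 0.00134. Etv4, which did not pass at 2 h, rose by 2.38 at 8 h, a difference of 2.11 (adjusted p = 0.000619). Vdr fell by 0.80 on the log2 scale at 8 h, more than at 2 h, with a difference of −0.42 (SE 0.11, adjusted p = 0.0269).

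Against the libraries labelled LPA at 2 h, which share the treated libraries with the comparison with vehicle, 2967 genes (18.1%) passed, 1421 higher (8.66%) and 1546 lower (9.42%). Without replicate 2 of the libraries labelled LPA 1882 passed, and without replicate 2 of those labelled 1,25D 1951 did. Side by side, Egr3 changed by 3.51 against vehicle and 3.69 against the libraries labelled LPA, Il6 by 4.02 and 4.55, Atoh8 by −1.37 and −2.01, and Bmf by −1.52 and −1.87. Klhl33, a kelch family gene, had the largest fall in the second comparison: it averaged 4.61 ± 0.217 CPM in vehicle, 2.20 ± 0.408 CPM in the libraries labelled 1,25D, 24.1 ± 0.853 CPM in those labelled LPA and 21.5 ± 1.13 CPM with both agents. Its changes were −1.07 (SE 0.14, adjusted p = 1.57e-05) against vehicle and −3.45 (SE 0.14, adjusted p = 6.74e-14) against the libraries labelled LPA. Fst and Tsc22d1 averaged 45 ± 1.82 and 326 ± 22.5 CPM in the libraries labelled LPA, between their levels in vehicle and in the libraries labelled 1,25D.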

How the data were processed

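Total RNA went into DNBSEQ Fast RNA libraries, per the labels' protocols. The authors deposited estimated counts and TPM for 139145 transcripts per library, per the file headers. The counts need not be whole and are not scaled between libraries, and TPM is scaled for length and depth, so gene TPM was used only to set levels of genes side by side. The sources used here do not name the quantifier. Per the submitters' processing notes the build is mm39. Transcripts were named with GENCODE M21, which matched 135024 of them and 99.42 to 99.57% of the counts. Its build is GRCm38, so it served for names and gene structure. Estimated counts were summed to 49120 genes, of which 34846 had a count, and rounded.

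Differences were tested with edgeR 4.0.16 in R 4.3.3 (quasi-likelihood, robust, TMM, filterByExpr with a minimum count of 10) in 1 fit of all 8 groups, which left 16 residual degrees of freedom. Prior degrees of freedom were 5 and the common biological coefficient of variation was 0.131. P-values were adjusted by Benjamini-Hochberg over 16413 genes at a threshold of 0.05. CPM uses TMM-scaled totals, and every group mean ± SD has n = 3. The main fit did not pair samples by replicate number, since no label says that a number marks a shared culture or day. Groups followed the titles.

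The members, and the 39 gene lists with 643 entries, were chosen with earlier results of these data known. Genes were named by a rule: Cyp24a1, Vdr, Fgf23, Il12a, Lpar1, Egr1, Fos, Spp1, Tnfsf11 and Tnfrsf11b, the 15 largest rises and falls at a mean of at least 1 CPM without overlap, up to 5 risers and 3 fallers per list, and 5 each way in other comparisons. Other list members named, among them Srf, Bcl3, Nfkb1, Smad7, Spred1, Tagln2, Timp1, Zc3h12a, Csrnp1, Aurka and those given as not passing, were chosen after their values were seen. A gene and a list that the rule would name are not reported here. Alternatives were median-of-ratios scaling, DESeq2 1.42.0, no filter, the compared groups alone, a replicate block and leaving out each library.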

Additional observations from a re-analysis of the deposited data

Results flagged for a closer look

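The effect of the agent labelled 1,25D at 2 h differed between its use alone and on top of the agent labelled LPA in 6 genes, by the interaction term. Sprr2a2 had a difference of 2.94 (log2) and Eif4a-ps4 of 1.08, and both belong to near-identical families whose counts could be split between copies. Tsc22d1 had a difference of −0.64 and Fst of −0.62. The other 2, Lypd8 and Fcgbp, were chosen after their values were seen and are given among the other observations. Of the 12 libraries in this test, leaving out 1 at a time left 0 to 7 genes.

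The effect against vehicle differed between 8 h and 2 h in 684 genes. The largest positive differences among named genes were Tspan11 with 2.47, Rnf150 with 2.42, Abhd15 with 2.19, Etv4 with 2.11 and Ppp1r3d with 1.95. The largest negative ones were P2rx6 with −2.79, Egr3 with −2.73, Egr2 with −2.56, Reps2 with −2.38 and Fosb with −2.22. Of these 10, Egr2, Egr3, Fosb and Reps2 had risen at 2 h, and Abhd15 had fallen.

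Cyp24a1 signal appeared outside the compared libraries: 102 counts over the libraries labelled LPA at 8 h and 87 over those given both agents at 8 h, against 1 over vehicle at 8 h.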

How the results depend on the processing

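No named gene and no count of list members changed direction, but the balance of higher and lower calls over all genes did. With no filter 61.7% were higher for both agents against labelled LPA (49.3% with it), 61.8% against labelled LPA (47.9%), 66.8% at 8 h (48.7%) and 59.2% for the difference between times (31.9%). With the compared groups alone these shares were 58.5%, 60.6%, 39.2% and 32.2%. The 2285 genes called at 2 h became 2305 with median-of-ratios scaling, 2571 with DESeq2, 2055 with no filter (59.1% of them higher, against 50.8%) and 1934 with only the compared groups fitted (62.7% higher). Leaving out 1 library gave 1487 (without replicate 2 of the libraries labelled 1,25D) to 2084. Leaving out 1 library gave 2131 to 2862 for both agents against labelled LPA, where the compared groups alone gave 4040. For the difference of the 2 effects at 2 h, 2 genes passed with the compared groups alone, 88 with no filter and 0 to 7 without single libraries. Against labelled LPA the range was 1882 (without its replicate 2) to 2709, with 1951 without replicate 2 of the libraries labelled 1,25D. At 8 h the compared groups alone gave 1288 and single libraries left out 1517 (without vehicle replicate 2) to 3406 (without vehicle replicate 3). The difference between times passed in 401 genes with the compared groups alone, 1041 with no filter and 442 to 796 without single libraries. The causes were not tested. As a replicate block, the replicate number gave 2198 genes at 2 h and 5 for the difference of the 2 effects. Deviations of same-numbered libraries from their group means correlated at −0.059, 0.030 and 0.001, and the block kept the call of each named gene. Such correlations cannot tell whether same-numbered libraries shared a culture or day. On the first component of the within-group deviations, replicates 1 to 3 at 2 h lay at −20.3, 5.39 and 14.9 in vehicle. They lay at −8.78, −3.43 and 12.2 in the libraries labelled 1,25D, and at −11.1, 16.2 and −5.15 in those labelled LPA. Pairing was not tested further. Of 166 named genes called, 21 lost the call in at least 1 of 11 alternatives, Bcl2, Cd109, Clock, Dnajb1, Jag1, Mmp11, Per1, Per2 and Stim2 among them. Of 29 list counts, the prostaglandin list moved to 2, the mitosis list to 8 lower with the compared groups alone, the clock list to 2 or 3, and the TGF-beta list to 3 lower without replicate 2 of the libraries labelled 1,25D. At this depth a gene with 3 counts or fewer in a library lies near the limit of detection.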

Other observations

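The following were chosen after their values were seen and are descriptions. Zinc finger genes with names that begin with Zfp were lower at 2 h in 71 of 363 tested (19.6%) and higher in 18 (4.96%), with a median log2 fold change of −0.17, against 6.85% lower and 7.07% higher among all genes. When the agent was added to the agent labelled LPA, 91 were lower, and 58 were lower in both comparisons. At 8 h 9 were lower. Zfp763, at −1.20 (adjusted p = 2.63e-05), and Zfp775, at −1.26 (adjusted p = 0.000165), were the members with the largest falls.

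Genes that moved most were compact. Protein-coding genes that rose at least 2-fold spanned a median of 12.3 kb with 4 exons and those that fell at least 2-fold 10.2 kb with 4 exons, against 23.2 kb and 8 exons over all protein-coding genes tested. The 1085 protein-coding genes among the 1160 that rose at any size had a median span of 30.6 kb, and the 1089 among the 1125 that fell a median of 18.2 kb.

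A set of 6 genes fell against vehicle and rose with the agent labelled 1,25D added to the agent labelled LPA. Lypd8 held 58, 38 and 30 counts in vehicle at 2 h, 1, 0 and 0 in the libraries labelled 1,25D, 0, 0 and 0 in those labelled LPA and 31, 39 and 0 with both agents. Fcgbp held 31, 11 and 13, then 0, 0 and 0, then 1, 0 and 0, and then 18, 30 and 2 counts in the same order of groups. Klk1 held 12, 8 and 6, then 1, 0 and 0, then 0, 1 and 0, and then 11, 11 and 1. These 3 genes, known from epithelia, were thus present at 2 h in vehicle and in replicates 1 and 2 of both agents, and close to 0 in replicate 3 of that group. Vehicle at 8 h held few counts as well: 1, 0 and 1 for Lypd8, 2, 2 and 4 for Fcgbp, and 1, 0 and 0 for Klk1. For Sprr2a2 it held 32, 40 and 40. What set the 2 h vehicle libraries apart was not tested. At 2 h Sprr2a2, an epithelial gene with near-identical copies, held 170, 94 and 81 counts in vehicle, 31, 38 and 30 in the libraries labelled 1,25D, 47, 37 and 47 in those labelled LPA and 137, 121 and 43 with both agents. The other 2 were the gene model Gm28925 and the pseudogene Eif4a-ps4.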
